A study of Homo sapiens with 4 samples.

Results

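Peaks bound by both cohesin and CTCF at the starts of protein-coding genes were described in HG00731, a human lymphoblastoid cell line (LCL), that is, B cells immortalised with Epstein-Barr virus. They were chosen by measured values: each is a peak of the SMC1 list on chromosomes 1 to 22 that overlaps a CTCF peak by at least 1 bp and lies within 1 kb of the start of a protein-coding transcript (GENCODE release 44, hg38). This rule kept 8943 peaks of the 97364 in the SMC1 list, or of the 94628 on chromosomes 1 to 22. SMC1 is a cohesin subunit. SMC1 was captured by FA-EGS HiChIP, in which cells are fixed with formaldehyde (FA) and then with the longer crosslinker EGS, and CTCF by HiChIP after FA alone, with 2 replicates per target. The targets therefore differ in antibody and in fixation, and these cannot be told apart. The labels give no treatment, and all 4 samples come from 1 line, so the values describe this line only. The growth protocol label names HG00721, while the other labels name HG00731, which is used here. The reads of both replicates were pooled for each target before peaks and loops were called, so no value has a spread between replicates and no test between groups was made. Shares carry a 95% Wilson interval and medians a 95% interval from the ranks, and both cover counting error only.

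Cohesin is a ring-shaped complex that extrudes chromatin loops. CTCF binds a long motif through its zinc fingers and halts extruding cohesin, mostly when the motif points into the loop. At promoters, CTCF and cohesin are known both as boundaries between neighbouring regulatory domains and as anchors that bring distant elements to a gene. HiChIP joins DNA ends that lie close together in the nucleus and enriches those bound by the target, so it gives peaks of binding and loops, here pairs of 5 kb anchors. The number of read pairs that joins 2 anchors is the raw measure of a loop.

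A CTCF motif of 19 bp was learned from CTCF summits on odd-numbered chromosomes whose peaks lay over 1 kb from every coding start. The 3000 of these with the highest significance were used, and the consensus was NNNCCACNAGGGGGCGNNN, where N is any base. The sequences below are 4 of the 5 highest-scoring motif matches that lie wholly in the 250 bp before a coding start and outside every annotated exon. They show what the CTCF site of a shared promoter peak looks like and which way it points. Each is read 5′ to 3′ on the strand of the motif, from the hg38 reference, and the capitals mark the 19 bases of the match.
SPOCK1: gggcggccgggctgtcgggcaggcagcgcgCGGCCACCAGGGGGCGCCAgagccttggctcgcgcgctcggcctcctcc
REPS1: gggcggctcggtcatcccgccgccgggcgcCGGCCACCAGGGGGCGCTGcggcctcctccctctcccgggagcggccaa
PMFBP1: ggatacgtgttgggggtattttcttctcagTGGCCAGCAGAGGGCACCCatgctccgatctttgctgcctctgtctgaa
DMKN: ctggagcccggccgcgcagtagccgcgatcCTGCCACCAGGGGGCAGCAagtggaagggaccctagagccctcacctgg

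The stretch at SPOCK1 lies at chr5:137499367-137499445 and that at REPS1 at chr6:138988336-138988414, and at both the motif is on the minus strand, as is the gene. The stretches at PMFBP1, chr16:72125025-72125103, and DMKN, chr19:35510521-35510599, carry the motif on the plus strand while the gene runs on the minus strand. The match scored 23.8 bits at SPOCK1, a secreted proteoglycan, and 22.1 bits at DMKN, a protein of the skin. At REPS1 the motif side held 5 of the 5 loops labelled SMC1 and 12 of the 14 labelled CTCF, and at DMKN it held 6 of 10 and 7 of 7.

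The SMC1 summits of the shared promoter peaks were spread on both sides of the coding start. The median position of the SMC1 summit was -4 bp from the nearest start (95% interval -9 to -1, n = 8943), where negative is upstream. Its quartiles were -278 and 329 bp. Of these summits, 24.9% (24.0 to 25.8) lay within 100 bp of the start and 65.7% (64.8 to 66.7) within 500 bp. The CTCF summit had a median position of -20 bp (-30 to -10) and was within 100 bp of the start in 19.7% (18.9 to 20.5). The median distance between both summits was 55 bp (54 to 57), and 64.2% of peaks (63.2 to 65.2) had them within 100 bp. In 10.7% (10.1 to 11.3) they were over 500 bp apart. The SMC1 peak itself held a coding start in 60.5% (59.4 to 61.5). Closeness to a start is part of the rule, so these positions are a description.

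**Figure D1:**
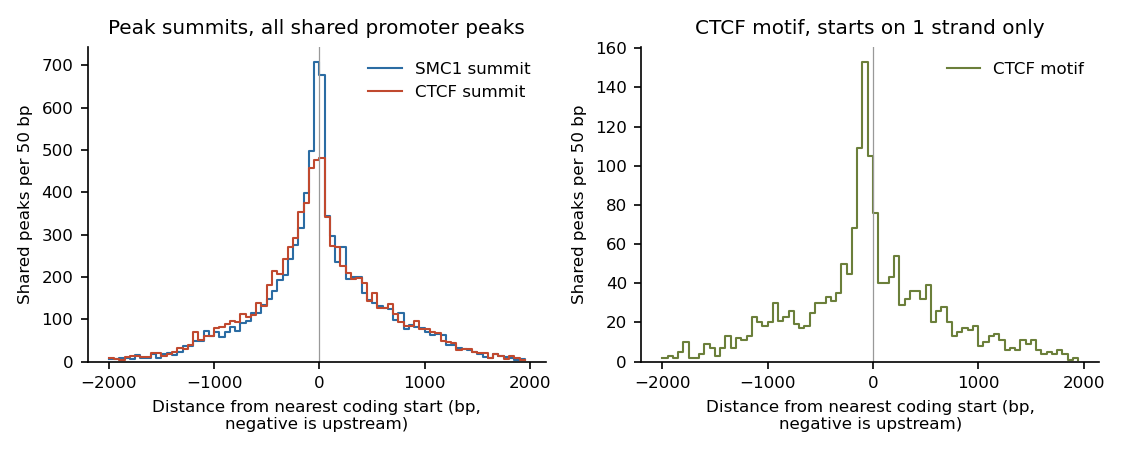
Number of shared promoter peaks per 50 bp by distance of the SMC1 and CTCF summits (left) and of the CTCF motif (right) from the nearest coding start in bp, where negative is upstream. The SMC1 line peaks at 708 summits in the 50 bp before the start, the CTCF line is lower there at 477, and the motif line peaks at 153 matches between -100 and -50 bp.

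Motif matches of at least 10 bits within 100 bp of the CTCF summit lay a little further upstream. Among the 1859 peaks with a match and with coding starts on 1 strand only, the median motif position was -63 bp (-76 to -50) and 57.9% (55.7 to 60.2) had the motif before the start. Upstream motifs shared the strand of transcription in 58.8% (55.8 to 61.7) of 1077, and downstream motifs in 48.8% (45.4 to 52.3) of 782.

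The shared promoter peaks were strong and wide for SMC1. Their median width was 1023 bp and their median -log10 q-value, the significance of the peak, was 37.6 (36.9 to 38.4), with quartiles of 21.0 and 65.2. SMC1 peaks at promoters without CTCF, 6994 in number, had a median width of 578.5 bp and a -log10 q-value of 12.96 (12.7 to 13.2). Shared peaks away from promoters, 35567 in number, had values of 951 bp and 33.0 (32.5 to 33.6). A wide peak meets an overlap or a start more easily, and the rank correlation of SMC1 -log10 q-value with width over the shared promoter peaks was 0.50, so width moves with this difference and its part was not tested. The median fold enrichment of SMC1, the summit over the local background of the same sample, was 4.59 (4.56 to 4.64) at shared promoter peaks against 4.65 (4.62 to 4.67) at shared peaks elsewhere.

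The CTCF values were lower at promoters than away from them. The CTCF peak under a shared promoter peak had a median -log10 q-value of 27.0 (25.8 to 28.4) and a fold enrichment of 5.52 (5.42 to 5.62). At shared peaks away from promoters these medians were 40.0 (39.2 to 40.8) and 6.75 (6.70 to 6.81). Fold enrichment was higher for CTCF than for SMC1 at 70.8% (69.8 to 71.7) of the shared promoter peaks, though the 2 lists come from different libraries and backgrounds. The rank correlation of SMC1 and CTCF -log10 q-values was 0.57 over the 8943 shared promoter peaks and 0.76 over the 35567 elsewhere. These are correlations across regions of the same pooled libraries, given as a description.

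The highest SMC1 -log10 q-values belonged to the promoters of PTK6, FES, DPEP2, DEF6, PSMC4 and ZNF219. PTK6, a cytoplasmic tyrosine kinase, led with 493 for SMC1 and 308 for CTCF at chr20:63537722-63538378, and FES, another tyrosine kinase, had 477 and 282 at chr15:90885174-90886812. DEF6, a signalling protein of lymphocytes, had 467 for SMC1 and 249 for CTCF. All of these peaks carried a CTCF motif within 100 bp of the CTCF summit. The SMC1 summit of DEF6 was 5 bp before the start, while that of FES was 1157 bp after it.

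The highest CTCF -log10 q-value, 826, was at DHRS13, a dehydrogenase, at chr17:28902327-28903549, where SMC1 had 385. IFFO2 followed with 653, CAV1 with 637, ZNF219 with 623, VPS36 with 612 and ZNF638 with 598. CAV1 encodes the coat protein of caveolae and VPS36 a subunit of the ESCRT-II complex. The best motif score at DHRS13 was 9.64 bits, just under the minimum of 10 bits, and the other 5 passed it. ZNF638 had no loop in either list, although its SMC1 -log10 q-value was 148. High values of both targets occurred with and without a called loop.

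The sites of some of these peaks are shown because they differ in how closely they keep the consensus. Each is the 19-base match on the motif strand, from the hg38 reference, with all bases in capitals as part of the match.
PTK6: CGGACGCCAGGGGGCAGGC
FES: TGGCCACCAGGGGCCGCTG
DPEP2: CGGCCACCAGGGGGCGCCC
DEF6: CGCCCGGCTGGGGGCGGCT
VPS36: GGACCGCCAGGGGGCGCTC
ZNF638: CTCCCGCGTGGTGGCGGCG

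The site of DPEP2, chr16:67993403-67993421, scored 23.2 bits, and that of FES lies at chr15:90886183-90886201. The sites of VPS36, chr13:52450774-52450792, and PTK6, chr20:63538075-63538093, scored 18.5 and 14.6 bits. DEF6, chr6:35297826-35297844, scored 11.05 bits and ZNF638, chr2:71331632-71331650, 10.03 bits.

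A CTCF motif was found at 22.8% (21.9 to 23.6) of the shared promoter peaks. The same search found one at 33.3% (32.8 to 33.8) of shared peaks away from promoters. The fit that learned the motif estimated a site within 50 bp in 36.8% of its 3000 summits. This is a fitted share and not a count of matches of at least 10 bits, so it cannot be set beside these shares. The share at shared promoter peaks moves with the search. It was 41.8% with a minimum of 7 bits, 12.0% with 13 bits and 42.6% within 250 bp of the summit, the last chosen after seeing the data. The control windows below were searched as for the 22.8%, and these other settings have no control share. In windows of the same width 2 kb to either side of the CTCF summit the share was 4.21% (3.93 to 4.51), and around all 18772 canonical coding starts it was 11.6% (11.2 to 12.1). Searched around the SMC1 summit instead, the share was 19.7% (18.9 to 20.5) at shared promoter peaks, 5.09% (4.599 to 5.63) at promoter peaks without CTCF and 31.4% (30.9 to 31.9) at shared peaks away from promoters. CTCF peaks of the same list chose the members and, over 1 kb from coding starts, taught the motif, so these shares are a description. Peaks with a motif had a median CTCF -log10 q-value of 78.0 (70.2 to 86.6, n = 2035), against 20.5 (19.6 to 21.4, n = 6908) without.

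The bases around the SMC1 summit were richer in CpG than at the other peaks compared, though not as rich as in windows centred on coding starts. In the 250 bp on either side, shared promoter peaks had a median GC content of 59.9% and a ratio of observed to expected CpG of 0.69, and 57.2% (56.1 to 58.2) were CpG-rich, with a GC content of at least 50% and a ratio of at least 0.6. The share was 39.3% (38.1 to 40.4) at promoter peaks without CTCF, 4.03% (3.84 to 4.24) at shared peaks elsewhere and 68.5% (67.8 to 69.1) around all canonical coding starts. Here and below, windows at canonical starts are centred on the start and those of peaks on the SMC1 summit. Only 24.9% of these summits at shared promoter peaks lay within 100 bp of a start, so the windows differ in distance from it. Of the short motifs of promoter factors, searched on both strands within 100 bp of the SMC1 summit, the GC box GGGCGGG of the SP and KLF factors was in 20.9% (20.1 to 21.8). It was in 14.4% (13.6 to 15.2) of promoter peaks without CTCF and in 38.7% (38.0 to 39.4) of windows at canonical starts. The ETS site CCGGAAG was in 6.11% (5.63 to 6.62), against 4.23% (3.78 to 4.73) and 11.3% (10.9 to 11.8). The TATA box TATAAA was in 4.50% (4.08 to 4.94) of shared promoter peaks, 7.55% (6.95 to 8.19) of promoter peaks without CTCF and 6.69% (6.34 to 7.06) of windows at canonical starts.

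The other short motifs searched were the NFY box CCAAT, the NRF1 site CGCNTGCGC, the YY1 site AAGATGGC and the ZNF143 site CTACAATTC. They were in 19.1%, 3.85%, 1.51% and 0.13% of shared promoter peaks, and in 25.1%, 8.17%, 3.73% and 0.17% of windows at canonical starts. The GC box can overlap the G-rich CTCF motif, and overlaps were not removed.

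Shared promoter peaks lay on loop anchors more often than the other classes of SMC1 peaks. For the list labelled CTCF, with 79406 loops on chromosomes 1 to 22, 70.0% of them (69.0 to 70.9) were on an anchor, against 50.2% (49.0 to 51.4) of promoter peaks without CTCF, 64.7% (64.2 to 65.2) of shared peaks elsewhere and 36.8% (36.3 to 37.3) of SMC1 peaks with neither. With the 27785 loops labelled SMC1, the shares were 38.1% (37.1 to 39.1), 18.8% (17.9 to 19.7), 31.8% (31.3 to 32.3) and 11.7% (11.4 to 12.0). The lists are named by their labels. On all chromosomes the list labelled SMC1 holds 28012 loops and that labelled CTCF 80487. The study's own tables give exactly these numbers the other way round, with 80487 for SMC1 and 28012 for CTCF. The study also gives the share of its SMC1 peaks that lie inside loop anchors. That share is above every class share given here for the list labelled SMC1. It lies among the class shares given for the list labelled CTCF. The lists may therefore be exchanged between the targets, and which target each belongs to is not certain. The peaks were an input to the loop calling, an anchor can hold several of them, and wider peaks reach more anchors. Anchors of both lists held 35.8% (34.8 to 36.8) of shared promoter peaks, only those of the list labelled CTCF held 34.2% (33.2 to 35.2), and 27.7% (26.8 to 28.6) were on none.

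**Figure D2:**
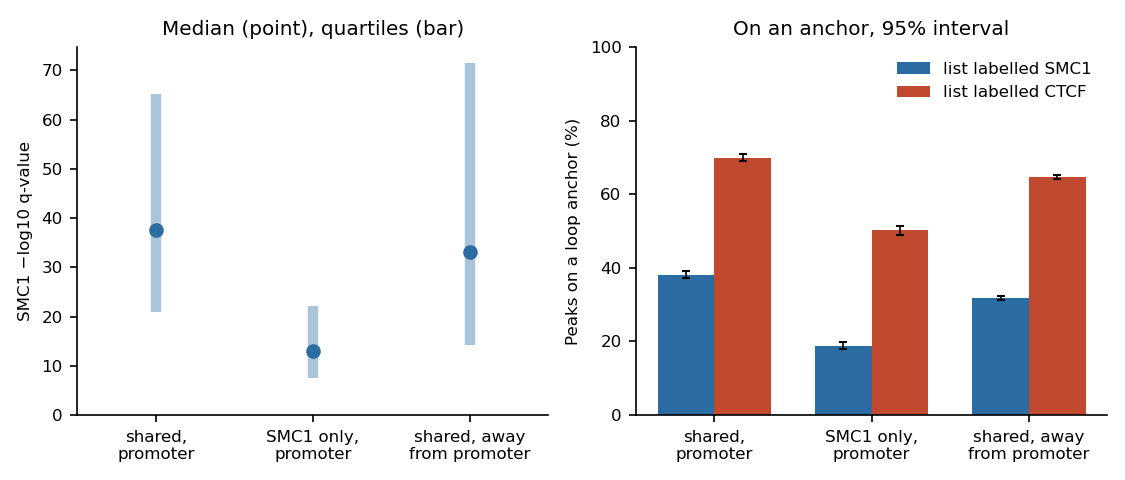
Left, median (point) and quartiles (bar) of the SMC1 -log10 q-value for the 8943 shared promoter peaks, the 6994 SMC1 promoter peaks without CTCF and the 35567 shared peaks away from promoters. Right, percent of each on a loop anchor in each list with 95% Wilson intervals, where the shared promoter peaks are the highest of these 3 classes at 38.1% and 70.0%.

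The share on an anchor rose with the significance of both peaks. In 4 groups of 2235 to 2237 peaks, ordered by CTCF -log10 q-value, it went from 56.9% (54.8 to 58.9) through 63.0% and 71.9% to 88.1% (86.6 to 89.3) in the list labelled CTCF. The list labelled SMC1 gave 26.0% (24.2 to 27.9), 28.6%, 33.7% and 64.1% (62.1 to 66.1). The motif share rose alongside from 8.54% (7.45 to 9.77) to 43.6% (41.6 to 45.7), and the median SMC1 -log10 q-value from 24.7 to 92.0. There the last step was larger than those before it. Ordered by SMC1 -log10 q-value instead, the shares rose from 50.4% to 91.0% for the list labelled CTCF and from 23.6% to 64.7% for the list labelled SMC1.

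**Figure D3:**
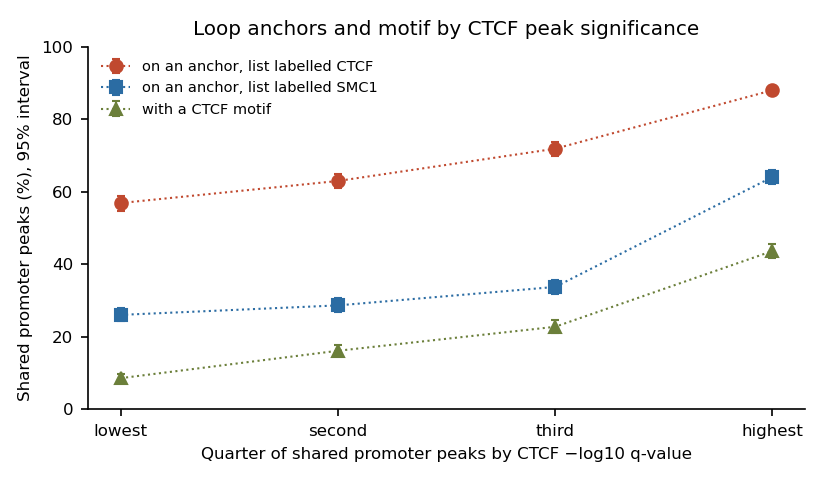
Percent of shared promoter peaks on a loop anchor in each list, and percent with a CTCF motif, in 4 groups of equal size ordered by CTCF -log10 q-value, with 95% Wilson intervals. The list labelled CTCF runs from 56.9% to 88.1%, the list labelled SMC1 from 26.0% to 64.1% and the motif from 8.54% to 43.6%.

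Loops on shared promoter peaks were shorter than the other loops. They numbered 9449 in the list labelled SMC1, or 34.0% (33.5 to 34.6) of it, with a median span of 115 kb (110 to 115) against 135 kb (135 to 140) for the rest. Among the loops labelled CTCF they numbered 21969, or 27.7% (27.4 to 28.0), with 105 kb (100 to 105) against 135 kb (135 to 140). Read pairs per loop had a median of 24 against 21 in the first list and 26 against 22 in the second. Divided by the read pairs that the authors' regression expected, the medians were lower on shared promoter peaks, at 3.64 (3.60 to 3.68) against 4.20 (4.17 to 4.23) and at 3.63 (3.60 to 3.65) against 4.22 (4.19 to 4.24). Span moved with both values, and its part was not tested.

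In about 1 loop in 4 the other anchor lay near a coding start, which can belong to the same gene. It lay within 1 kb of one in 25.1% of loops labelled SMC1 and 22.9% of those labelled CTCF. With canonical transcripts only, for the peaks as well, these shares were 17.6% and 17.004%. The share of all anchors near a coding start was not counted, so whether 25.1% and 22.9% differ from it was not tested. Another shared promoter peak was at the far end in 12.1% (11.5 to 12.8) and 9.92% (9.53 to 10.3). The most frequent far end was a shared peak away from promoters, with 51.8% (50.8 to 52.8) and 50.3% (49.7 to 51.0), and an SMC1 promoter peak without CTCF was there in 2.60% (2.30 to 2.94) and 4.62% (4.35 to 4.91). These classes were counted in this order, each loop once. No SMC1 peak was at the far end in 24.5% (23.6 to 25.3) and 19.9% (19.4 to 20.4). Over all anchors of the lists, with the classes in the same order, shared promoter peaks were on 19.1% and 15.2%. Shared peaks elsewhere were on 57.8% and 56.3%, and SMC1 promoter peaks without CTCF on 1.36% and 2.74%. These are shares of anchors and not of loops. A loop with shared promoter peaks at both ends counts once among the loops, but with both its anchors here. Only the order of these 3 classes can therefore be compared, and it was the same.

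The loop with the most read pairs between shared promoter peaks was the same in both lists. It joined 2 shared peaks of CSK, the kinase that holds Src-family kinases in check, from chr15:74780001-74785000 to chr15:74795001-74800000, with 289 read pairs against 85.7 expected in the list labelled SMC1 and 393 against 132 in the list labelled CTCF. The longest such loop of the list labelled SMC1 spanned 645 kb between EFHD1 and ATG16L1, an autophagy gene, with 26 read pairs against 3.79 expected. That of the list labelled CTCF spanned 915 kb between TRIM13 and RNASEH2B, a subunit of ribonuclease H2, with 14 read pairs against 2.36.

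Loops left shared promoter peaks on the side to which the CTCF motif pointed. Counting loops with 1 shared promoter peak on them and a motif at it, 74.9% of 3737 loops labelled SMC1 and 79.2% of 6373 labelled CTCF did so. An even split would give 50%. The share rose with the motif score in the list labelled CTCF, from 50.4% (49.3 to 51.5) for a best hit under 7 bits through 53.3%, 69.1% and 81.7% to 87.0% (85.5 to 88.4) at 16 bits or more. For the list labelled SMC1 it rose from 51.9% (49.96 to 53.8) to 77.2% (74.8 to 79.5) between 13 and 16 bits, and was 77.2% (75.1 to 79.3) above. Loops of 1 peak share its motif, so peaks were also counted once: most loops lay on the motif side at 71.4% (68.2 to 74.4) of 829 peaks and at 72.1% (69.5 to 74.5) of 1267.

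**Figure D4:**
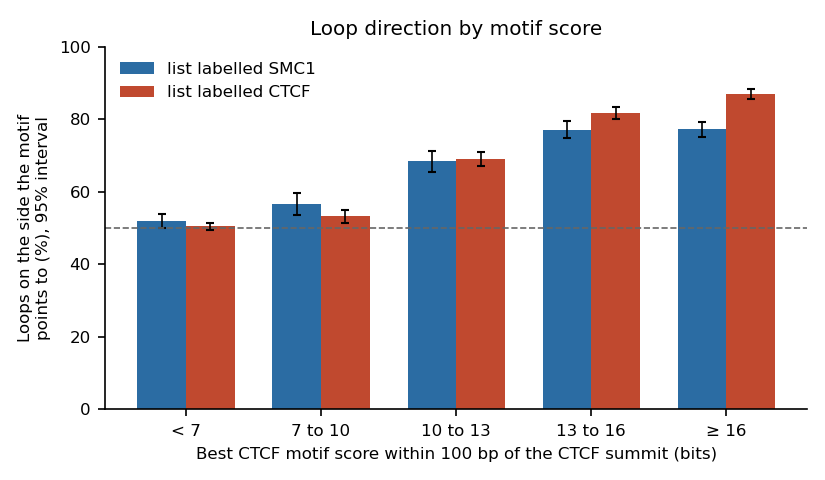
Percent of loops that leave a shared promoter peak on the side the best CTCF motif match points to, by score of that match in bits, for both loop lists with 95% Wilson intervals, and a dashed line at 50%. Bars lie near the line under 7 bits, at 51.9% and 50.4%, and reach 77.2% and 87.0% at 16 bits or more.

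The direction of transcription set loops apart much less than the motif did. Loops left in the direction of transcription in 54.2% (53.0 to 55.4) of 6887 loops labelled SMC1 and in 55.1% (54.3 to 55.8) of 16329 labelled CTCF. Where the motif lay on the strand of transcription these shares were 74.4% (72.5 to 76.3) and 81.1% (79.7 to 82.4), and where it lay on the other strand 23.9% (21.8 to 26.1) and 22.4% (20.9 to 24.0). Loops between 2 shared promoter peaks with a motif each were few. Their motifs converged in 81 of 149 loops, ran in tandem in 58 and diverged in 10 in the list labelled SMC1, against 121, 81 and 18 of 220 in the list labelled CTCF.

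Several of the named promoters sent all loops one way. FES had 8 loops labelled SMC1 and 38 labelled CTCF, all on the motif side. RAI1, a regulator of transcription, had 40 and 31, also all on the motif side, and so did ESR2, the estrogen receptor beta gene, with 23 and 36. Others went the opposite way: none of the 31 and 21 loops of IFFO2, the 10 and 10 of DEF6 or the 7 and 10 of ZNF219 lay on the motif side. DIP2B, whose best hit was under 10 bits, had none of 15 and 38 on the side of that hit. ACBD4, with the most loops of the list labelled SMC1, sent 14 of 44 to the motif side there and 15 of 23 in the list labelled CTCF.

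Among the other promoters with the most loops, MYLIP, a ubiquitin ligase that acts on the LDL receptor, had 43 in the list labelled SMC1. ARPC3, a subunit of the Arp2/3 complex, and DHRS13 had 39 each. SMIM29 had 38 in the list labelled CTCF, and VEGFA, the endothelial growth factor, had 33. Such counts were rare, since the median anchored peak had 2 loops labelled SMC1 or 3 labelled CTCF, and 249 and 593 peaks had 10 or more.

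The shared promoter peaks reached 8346 of 18773 protein-coding genes, or 44.5% of them, and 17.6% (16.7 to 18.4) of these genes had 2 or more. Another 18.5% of coding genes (18.0 to 19.1) had only SMC1 at a start, 1.82% (1.64 to 2.02) only CTCF and 34.0% (33.3 to 34.7) neither. The CTCF list is shorter, with 61417 peaks on chromosomes 1 to 22 against 94628 in the SMC1 list. The part of list length in these shares was not tested. Of the shared promoter peaks, 9.35% (8.76 to 9.97) lay at a divergent pair of coding starts, against 8.88% (8.23 to 9.57) of promoter peaks without CTCF. The peaks at divergent starts had a median CTCF -log10 q-value of 18.9 (16.8 to 21.8), against 28.0 (26.7 to 29.6) at the others.

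B cell transcription factors had shared promoter peaks more often than the 44.5% of all coding genes. Of the 24, 18 had one, and the highest CTCF -log10 q-values among them were at POU2F2, the octamer factor OCT2, with 290, IKZF3, the Ikaros-family factor Aiolos, with 191, BCL11A with 145 and RUNX3 with 131. None of these 4 peaks had a CTCF motif of 10 bits at the CTCF summit. The T cell lineage list had 6 of 19 and the list of transcription factors of tissues other than blood 5 of 20. These lists describe peaks at promoters and not expression, and their intervals are wide, at 55.1 to 88.0%, 15.4 to 54.0% and 11.2 to 46.9%. Another B cell list, B cell receptor signalling, had 10 of 20 (29.9 to 70.1%). Lists not chosen for B cells were as high as the 75% of the B cell factors: 76.2% for the cell cycle and MYC, 76.5% for cohesin and CTCF factors and 81.3% for the BCL2 family.

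Some genes of other lineages did have strong shared peaks. CD8A, a co-receptor of cytotoxic T cells, had a CTCF -log10 q-value of 168 and a motif, but no loop labelled SMC1 and 1 labelled CTCF. FOXA2, a factor of liver and gut, had a CTCF -log10 q-value of 67.2, with 1 and 3 loops. TBX21, the T-bet gene, had 84.0, with 2 and 3 loops, none of them on the motif side.

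The BCL2 family of cell death regulators had 13 of 16 genes with a shared promoter peak, and 10 of the 20 peaks had a motif. BCL2 itself, the inhibitor of apoptosis, had 2 shared peaks over 1 CTCF peak of 200, with 21 and 13 loops, all on the motif side. Genes of the cell cycle and MYC list had 16 of 21, among them CDK4 with a CTCF -log10 q-value of 365 and CDK6 with 206. The peak counted for CDK4 is within 1 kb of starts of CDK4 and MARCHF9, and that of MARCHF9 is the nearest. The cohesin and CTCF factors had 13 of 17, led by ESCO1, an acetyltransferase of cohesin, with 308 and STAG1, a cohesin subunit, with 236. In NF-kappaB signalling 11 of 19 genes had one, with 279 at NFKB2 and 131 at NFKBIA. The motif side held 21 of 21 and 26 of 26 loops at NFKBIA, but 1 of 6 and 1 of 2 at NFKB2. The CTCF summit was at -2435 bp from the start of NFKBIA, where only the edge of the SMC1 peak, at 891 bp, met the rule. At NFKB2 it was at -84 bp. B cell receptor signalling had 10 of 20, near the 44.5% of all coding genes.

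**Figure D5:**
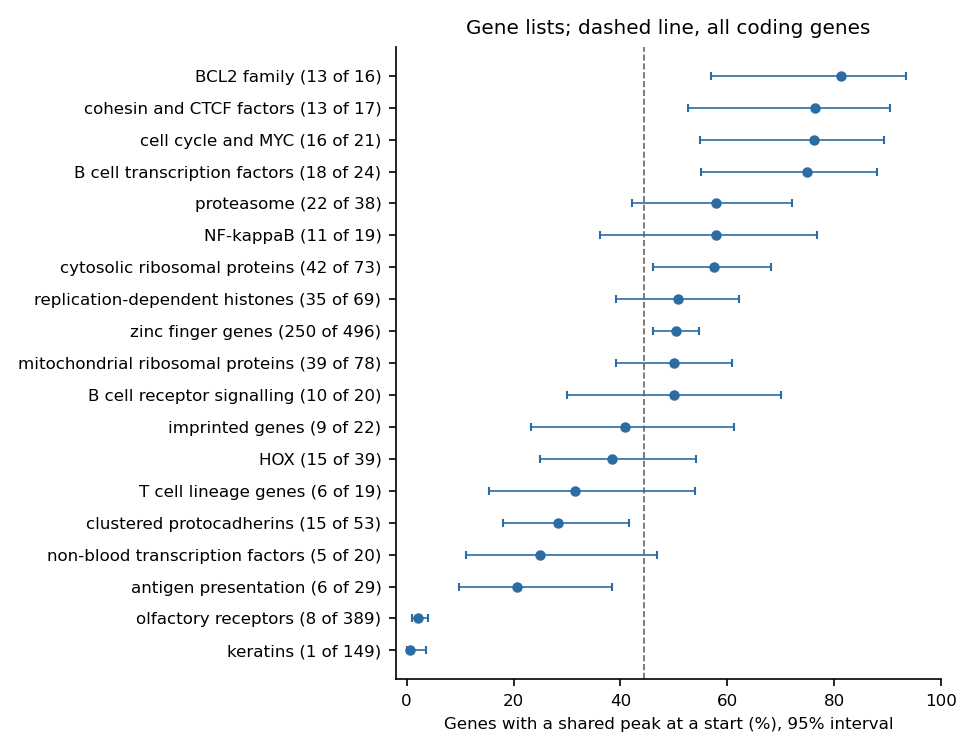
Percent of the genes of each list with a shared SMC1 and CTCF peak within 1 kb of a start, with 95% Wilson intervals and counts beside the names, and a dashed line at the 44.5% of all coding genes. The BCL2 family is highest with 13 of 16 genes, and olfactory receptors with 8 of 389 and keratins with 1 of 149 are lowest.

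Lists of widely used genes and of some other families were also described, beside the 44.5% of all coding genes. Cytosolic ribosomal proteins had 42 of 73 (57.5%), led by RPL26 with a CTCF -log10 q-value of 418. Mitochondrial ribosomal proteins had 39 of 78 (50%) and the proteasome 22 of 38 (57.9%). Replication-dependent histones had 35 of 69 (50.7%) and zinc finger genes 250 of 496 (50.4%). Imprinted genes had 9 of 22 (40.9%), with 141 at MEST, whose motif is centred 1 bp from the start. HOX genes had 15 of 39 (38.5%). HOXB5, a factor of body patterning, was highest among them with a CTCF -log10 q-value of 400 and with 25 and 33 loops, all on the motif side. Only the intervals of cytosolic ribosomal proteins (46.1 to 68.2%) and zinc finger genes (46.0 to 54.8%) lay above 44.5%, and the others held it.

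Other gene families had fewer. Olfactory receptors had 8 of 389 and keratins 1 of 149. Clustered protocadherins, the cell surface proteins of neurons whose promoters are a known place of CTCF binding, had 15 of 53, and another 13 had CTCF without SMC1 at a start, against the 1.82% of all coding genes. PCDHGA12 had the highest CTCF -log10 q-value among them, 206, and none of the 16 protocadherin peaks had a motif of 10 bits at the CTCF summit. Counts in families of near-identical genes are uncertain, because reads that map to several copies cannot be placed.

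The antigen presentation list had 6 of 29, with a CTCF -log10 q-value of 33.0 at CD74, the invariant chain, and of 28.8 at CIITA, the master regulator of class II genes. All 17 HLA genes in the list had neither target at a start, and the other 12 genes had 6 with a shared peak. From HLA-F to HLA-DPB1, 3358 kb of chromosome 6, all 134 coding genes lacked both targets, and the SMC1 and CTCF lists held 1 peak each. The reference of the authors' lists holds alternate and HLA contigs, with 16 SMC1 peaks on the alternate contigs of chromosome 6. Whether reads of this region were lost to such contigs was not tested.

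The share of coding genes with a shared promoter peak was between 35.6% (29.6 to 42.2) on chromosome 21 and that of 160 in 320 genes (44.6 to 55.5%) on chromosome 13. Loops differed more between chromosomes. With loops labelled SMC1, 13.1% of shared promoter peaks on chromosome 13 were on an anchor and 54.6% on chromosome 19. With those labelled CTCF the values were 53.4% and 73.4%.

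At the edges of the rule, values inside and outside overlapped. The last peaks inside 1 kb, both at 1000 bp, were near MC1R with -log10 q-values of 25.9 for SMC1 and 91.9 for CTCF, and near TSPOAP1 with 21.5 and 17.7. The first outside, at 1001 bp, was near CEACAM6 with 62.4 and 120, followed at 1002 bp by RAD51C with 148 and 81.1. The smallest overlaps inside were 2 bp at GPR35, with 3.70 and 5.62, and 3 bp at STAT6, with 2.94 and 3.89. The nearest misses, at a gap of 1 bp, were at SPTSSA with 14.2 and 3.31 and at NEK6 with 5.96 and 6.58.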

How the data were processed

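Reads were mapped by the authors (BWA-MEM, hg38) and cleared of duplicates. The authors pooled both replicates of each target and called peaks with MACS3 3.0.1 without an input sample. The deposited fold enrichment (ratio) sets the summit against the background around it. Significance was deposited as a -log10 q-value, at least 2.01 for SMC1 and 2.00 for CTCF. In the loop lists, called with MAPS on 5 kb anchors, the deposited values are the count of read pairs, not normalised, and, as a score, the number that a regression expected. Depth per replicate was not used here. The loop counts sum to 783375 (labelled SMC1) and 2635261 (labelled CTCF) read pairs on chromosomes 1 to 22.

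Peaks were overlapped by at least 1 bp and placed within 1 kb of GENCODE release 44 coding starts. No peak or loop lay beyond a chromosome end of the reference. Each shared peak took the most significant of the CTCF peaks it overlapped. The motif was learned by expectation maximization from 50 bp on either side of 3000 CTCF summits and needed 10 bits. Motif learning was tested on simulated data and recovered 19 of 19 positions and 997 of 1000 sites. Genes named had the 6 highest values of SMC1 or CTCF -log10 q-value or loops in either list, up to 4 by CTCF -log10 q-value per gene list, the loops with the most read pairs or the longest span, and the peaks at the edges of the rule, and not all of them are printed. Some of these items are not reported here. Members and lists were chosen with earlier results of these data known. Of the antigen presentation list, the split by HLA genes was made after its values were seen. The random seed was 11, and the tools were pandas 2.3.3, NumPy 2.4.6, pysam 0.24.0, SciPy 1.17.1 and Matplotlib 3.10.9 under Python 3.11.15.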

Additional observations from a re-analysis of the deposited data

How the results depend on the processing

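Of 86 recomputed values, 44 stayed within the 95% interval of the reported value (the number of peaks within 1.5 times), and the motif-side shares stayed above 50% in all alternatives run. With peaks under a -log10 q-value of 10 left out of both lists, the share of genes was 33.6%, the SMC1 and CTCF medians 45.9 and 50.2, the motif share 27.6%, the anchor shares 42.9% (list labelled SMC1) and 75.6% (CTCF) and the promoter share at the other anchor 23.5% (CTCF). Within 500 bp of a start, the share of genes was 40.6%, the SMC1 median 38.9, the promoter shares 23.7% (SMC1) and 21.7% (CTCF) and the motif-side share 78.1% (CTCF). With canonical transcripts only, the share of genes was 38.9%, the CTCF median 25.01, the motif share 21.2%, the anchor share 37.0% (SMC1), the promoter shares 17.6% (SMC1) and 17.004% (CTCF) and the motif-side share 77.0% (CTCF). With loops of at least the median read pairs, the anchor shares were 27.8% and 55.6%, the promoter shares 27.9% and 24.4% and the motif-side shares 72.0% and 78.1%. Exchanging the loop lists exchanges their values: anchor shares of 70.0% and 38.1%, promoter shares of 22.9% and 25.1% and motif-side shares of 79.2% and 74.9%. Without chromosome 19 the anchor share was 36.9% (SMC1) and the promoter shares 23.4% and 21.2%. With a motif minimum of 7 bits the motif share was 41.8% and the motif-side shares 71.0% and 70.9%, and with 13 bits they were 12.0%, 77.2% and 84.4%. With the motif searched within 250 bp of the CTCF summit, chosen after seeing the data, the motif share was 42.6% and the motif-side share 77.6% (CTCF). Apart from the exchange, which swaps the values by construction, the causes were not tested. What depth limits was not tested. No paired analysis was possible because the lists pool both replicates.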
